A study of Mus musculus with 2 samples.

Results

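Large Pf4-low cells are the RNA-rich cells of a hematopoietic stem cell culture that hold many transcripts but little Pf4, the transcript of the platelet chemokine platelet factor 4. They were chosen by 2 measured values: at least 50000 UMIs in the cell (unique molecular identifiers, the tags by which single captured transcripts are told apart) and Pf4 below 0.3% of the cell's UMIs. Of 9944 kept cells, which had at least 500 genes and at most 10% of their UMIs from mitochondrially encoded genes, 623 met the rule. Of these, 537 came from the RO-3066 library and 86 from the DMSO library. Cell size was not measured, so "large" stands only for the UMI count, which depends on the RNA content of a cell and on how much of it was captured.

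The mouse hematopoietic stem cells carried the tissue label blood and were kept in suspension culture for 48 h with RO-3066 or with its vehicle, dimethyl sulfoxide (DMSO), before droplet sequencing of transcript 3′ ends. The labels state neither a target nor a dose for RO-3066. A Cdk1 inhibitor that holds cells before mitosis has the similar name RO-3306, and whether that compound was meant is not given in the sources used here; strain, age and sorting markers of the mice are not given either. There was 1 library per treatment, so treatment and library cannot be told apart and no difference was tested across samples. Every interval given for a share or a fold is exact, at 95% confidence, and reflects counting error alone. Intervals of a median over genes reflect the spread among genes.

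Megakaryocytes are the bone marrow cells that shed platelets. On the way there a precursor passes through rounds of DNA replication without cell division, and its nucleus, cytoplasm and RNA content grow. Transcripts of surface receptors such as the integrin Itga2b appear early on this route, while Pf4 and other contents of platelet granules become very abundant later. A cell in G2, or 1 that has copied its genome without dividing, also tends to hold more RNA than a cell in G1, so a high UMI count alone names no cell type.

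The share of kept cells that were large and low in Pf4 was 14.1% (13.01 to 15.25%) in RO-3066 and 1.40% (1.12 to 1.73%) in DMSO. Cells of at least 50000 UMIs numbered 1161 with RO-3066 and 540 with DMSO. The Pf4-low cells made up 46.3% of them (43.4 to 49.2%) in RO-3066 and 15.9% (12.9 to 19.3%) in DMSO. They held 21.5% of all UMIs of kept cells in RO-3066 and 2.86% in DMSO. Their median was 62348 UMIs in RO-3066 and 57595.5 in DMSO, and 33 RO-3066 cells but 2 DMSO cells reached 100000.

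Both limits cut through continuous distributions. Just above the UMI limit, from 50000 to below 55000, there were 114 RO-3066 and 27 DMSO members, while 183 RO-3066 and 48 DMSO Pf4-low cells lay between 45000 and the limit. On the Pf4 axis, 54 RO-3066 and 5 DMSO members had 0.25 to 0.3% Pf4, and 44 RO-3066 and 16 DMSO cells of at least 50000 UMIs had 0.3 to 0.35%. The median Pf4 share of the members was 0.092% in RO-3066 and 0.088% in DMSO. Setting members against the 2537 RO-3066 and 4594 DMSO Pf4-low cells of 1000 to fewer than 50000 UMIs, called smaller Pf4-low cells here, is therefore a comparison along a gradient.

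**Figure D1:**
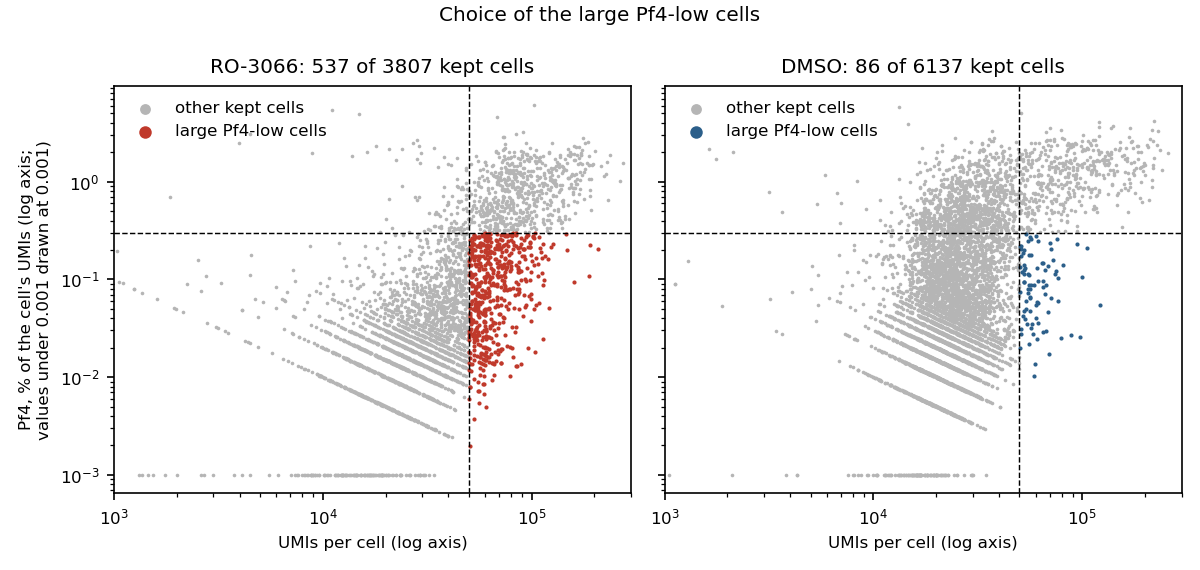
Pf4 as a percentage of the cell's UMIs against UMIs per cell, both on log axes, for the kept cells with 1000 or more UMIs of RO-3066 (left) and DMSO (right), Pf4 shares under 0.001% being drawn at 0.001%; dashed lines mark 50000 UMIs and 0.3% Pf4, and coloured points are the large Pf4-low cells. The lower right corner holds 537 cells in RO-3066 and 86 in DMSO, and no gap separates them from their neighbours.

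A droplet that caught 2 cells also has a high UMI count, so doublets were examined first. A score from simulated doublets called 41 of the 537 RO-3066 members (7.64%, 5.53 to 10.2%) and 46 of the 86 DMSO members (53.5%, 42.4 to 64.3%). How many cells were called in a library was set beforehand by an assumed rate of 0.8% per 1000 barcodes. It was 116 of 3807 kept cells in RO-3066 (3.05%) and 301 of 6137 in DMSO (4.90%). Median scores were 0.74 in RO-3066 members and 0.9 in DMSO members, against 0.62 and 0.64 in smaller cells. Among smaller Pf4-low cells it called 1.42% in RO-3066 and 3.85% in DMSO. The share called among Pf4-low cells of 40000 to 50000 UMIs was already 26.5% in DMSO, against 2.95% in RO-3066 cells of the same range. A second count used no score. Of all possible pairs of kept cells, 53.7% in RO-3066 and 28.8% in DMSO would meet the rule once summed. At the assumed rate of 0.8% doublets per 1000 barcodes this gives 62.3 droplets for RO-3066 and 86.6 for DMSO. Members found numbered 537 and 86. At 0.4% it gives 31.2 droplets for RO-3066 and 43.3 for DMSO, and the score called 21 and 34 members (3.91% and 39.5%). The true rate is not given in the sources used here, so these counts do not fix the number of doublets. Without the doublets called at 0.8%, 496 RO-3066 and 40 DMSO members remained, 13.4% (12.4 to 14.6%) and 0.685% (0.490 to 0.932%) of the kept cells not called.

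**Figure D2:**
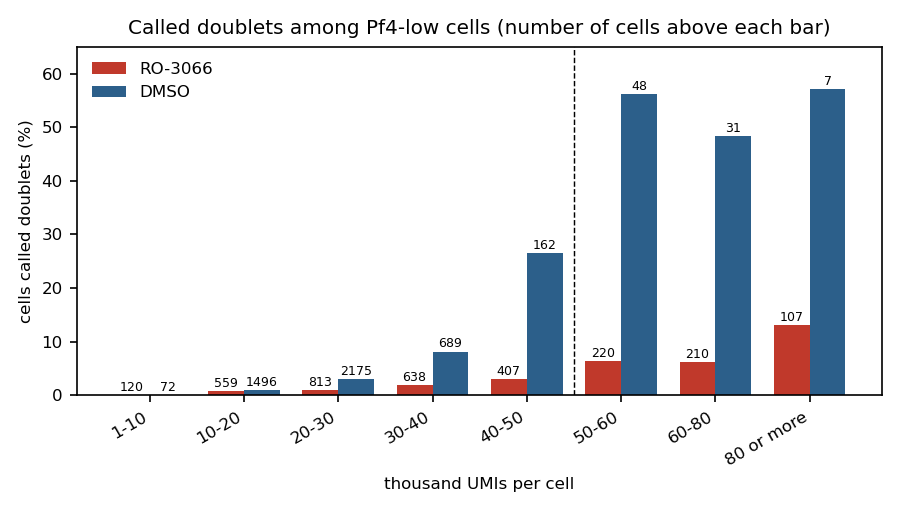
Percentage of Pf4-low cells called doublets in bins of UMIs per cell, RO-3066 left of DMSO in each bin, with the number of cells above each bar and the dashed line at 50000 UMIs. In DMSO 56.3% of the cells with 50000 to 60000 UMIs were called, against 6.36% in RO-3066.

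Per-cell quality differed little between the classes. With every cell thinned to 10000 UMIs, the median number of genes was 3098 in RO-3066 members and 3080 in smaller RO-3066 cells, and 3173 in DMSO members and 3053 in smaller DMSO cells. Median mitochondrial shares of members were 1.71% in RO-3066 and 1.70% in DMSO, against 1.72% and 1.5% in the smaller cells of the same libraries. Before any filter the libraries held 3882 barcodes with 171821236 UMIs for RO-3066 and 6160 barcodes with 188022321 UMIs for DMSO. They shared 7 cell barcodes, 2 of which were RO-3066 members and none a DMSO member. Marker lists of mast cells, lymphoid cells, macrophages and endothelium each held at most 0.00521% of the members' UMIs.

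The members carried transcripts of cycling cells and of megakaryocytes. Cdk1, a kinase that cells need to enter mitosis (mm10 chr10:69335146-69352938), stood at 270.0 CPM (UMIs per 1000000 UMIs of the class) in RO-3066 members and 218 CPM in smaller RO-3066 cells; in DMSO it stood at 235 CPM in members and 217 CPM in smaller cells. Ccnb1, which encodes its partner cyclin B1 (chr13:100778650-100786570), had 119 CPM in RO-3066 members against 90.8 in smaller cells, and 109 CPM in DMSO members against 90.6 in smaller cells. After thinning to 10000 UMIs, 92.2% of RO-3066 members and 86.0% of DMSO members had a Cdk1 UMI, against 83.3% and 74.8% of the smaller cells in the same libraries. Over the class sums, both genes were thus somewhat higher per UMI in the members of both libraries, by less than 1.5-fold. Along UMIs per cell, however, the DMSO levels peaked below the limit. Cdk1 in DMSO had 312 CPM at 30000 to 40000 UMIs, 243 CPM at 50000 to 60000 and 215 CPM at 80000 or more. Ccnb1 in DMSO had 158 CPM at 40000 to 50000 UMIs, 123 CPM at 50000 to 60000 and 72.8 CPM at 80000 or more.

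Vwf, the gene of von Willebrand factor, an adhesive protein of platelets and endothelium (chr6:125546774-125686679), was at 36.3 CPM in RO-3066 members against 11.3 CPM in smaller cells, 3.22-fold (2.94 to 3.52). The DMSO values were 23.3 CPM in members and 8.86 CPM in smaller cells, 2.63-fold (2.16 to 3.17). Gata1, a transcription factor needed by megakaryocytes and red cells (chrX:7959260-7978071), was at 37.9 CPM in RO-3066 members against 10.3 CPM in smaller cells, 3.69-fold (3.37 to 4.05). In DMSO it was at 12.5 CPM in members and 8.70 CPM in smaller cells, 1.43-fold (1.10 to 1.84). Large Pf4-high cells, those of at least 50000 UMIs with 0.3% Pf4 or more, had 142 CPM Vwf in RO-3066 and 124 CPM in DMSO. All 4 markers were detected in both libraries and, over the class sums, were higher in members than in smaller cells. The gap between the libraries in the Gata1 ratio was not tested. At 10000 UMIs, 27.2% of RO-3066 members and 8.14% of DMSO members had a Gata1 UMI, against 6.37% and 6.26% of smaller cells; without thinning these shares were 74.1% and 43.0%, against 15.4% and 12.6%.

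Megakaryocyte and platelet transcripts were more abundant per UMI in the members than in smaller cells of the same library. Of 45 listed genes other than Pf4, 29 had at least 20 CPM in members or smaller cells of RO-3066; 20 of these were at least 1.5-fold higher in the members, none was at least 1.5-fold lower, and the median log2 ratio was 0.80. In DMSO 24 passed the same minimum, 10 were at least 1.5-fold higher, none lower, and the median was 0.47, or 0.66 without called doublets. Among all genes compared, 127 of 5745 (2.21%) were at least 1.5-fold higher and 91 (1.58%) lower in RO-3066, and 73 of 5725 (1.28%) higher and 30 (0.524%) lower in DMSO, with medians of 0.01 in RO-3066 and 0.06 in DMSO. Scaled to a median near 0, the DMSO counts were 50 higher and 40 lower. A gene that passed the minimum only through the members had to be higher there, so these list counts describe and do not support. Pf4 also chose the members, and in RO-3066 the list's median was 0.49 when members and smaller cells had to hold less than 0.1% Pf4.

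Among receptors, Itga2b, one chain of the platelet fibrinogen receptor (chr11:102453297-102470122), had 231 CPM in RO-3066 members against 107 CPM in smaller cells, 2.16-fold (2.10 to 2.23). The DMSO levels were 128 CPM in members and 65.7 CPM in smaller cells, 1.94-fold (1.80 to 2.10). Itgb3, the other chain, was 2.27-fold higher (2.09 to 2.47) in RO-3066 members and 3.28-fold higher (2.70 to 3.95) in DMSO members. Treml1, a receptor kept in platelet granules (chr17:48359916-48367176), was at 43.1 CPM in RO-3066 members against 8.63 CPM in smaller cells, 5.0-fold (4.55 to 5.5). With DMSO it was at 10.6 CPM in members against 3.20 CPM in smaller cells, 3.32-fold (2.46 to 4.4), on 57 UMIs. Gp5 and Gp9, parts of the receptor for von Willebrand factor, were 2.90-fold (2.67 to 3.17) and 1.69-fold (1.60 to 1.78) higher in RO-3066 members, and 1.89-fold (1.48 to 2.4) and 1.34-fold (1.13 to 1.58) higher in DMSO members.

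Cavin2, which encodes a membrane-shaping protein of caveolae (chr1:51289126-51302960), showed the largest ratio among the listed genes compared in each library. It stood at 76.7 CPM in RO-3066 members against 13.9 CPM in smaller cells, 5.53-fold (5.14 to 5.96), and at 42.6 CPM in DMSO members against 10.2 CPM in smaller cells, 4.16-fold (3.59 to 4.80). Ppbp, a chemokine gene of platelet granules like Pf4, behaved otherwise. It was at 2.90 CPM in RO-3066 members and 2.53 CPM in smaller cells, and at 1.49 CPM in DMSO members (8 UMIs) and 1.67 CPM in smaller cells, with both intervals of the fold including 1. In large Pf4-high cells Ppbp reached 96.8 CPM in RO-3066 and 70.3 CPM in DMSO.

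Genes named for the size of their ratio in both libraries included further regulators. Zfpm1, which encodes the Gata1 cofactor FOG-1, had a log2 ratio of 0.74 in each library. Rap1b, a small GTPase of integrin activation in platelets, had 1.15 in RO-3066 and 0.90 in DMSO; Ptgs1, the cyclooxygenase of platelet thromboxane synthesis, had 0.76 in each; and Zeb2, a zinc finger repressor, had 0.92 and 0.84. Nomo1, Pdcd4 and Rabgap1l were also among the highest ranks, with Itga2b and Pf4 itself. Genes at least 1.5-fold higher in the members of both libraries numbered 48 of 5477 (0.876%), 10 of them from the megakaryocyte and platelet list, and 15 (0.274%) were lower in both. Of 19 megakaryocyte-erythroid transcription factors, 17 were compared in RO-3066 and 16 in DMSO, and 5 and 4 of them were at least 1.5-fold higher. Mef2c, a factor of megakaryocyte and muscle development, was at 402 CPM in RO-3066 members against 209 CPM in smaller cells, and at 315 CPM in DMSO members against 198 CPM in smaller cells.

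In these genes the members lay between smaller Pf4-low and large Pf4-high cells. The list took a median of 0.371% of the UMIs of a member in RO-3066 and 0.255% in DMSO. It took 0.670% in RO-3066 and 0.607% in DMSO of large Pf4-high cells, and 0.273% and 0.221% of smaller Pf4-low cells. Set against large Pf4-high cells, 25 of 36 listed genes in RO-3066 and 31 of 35 in DMSO were at least 1.5-fold lower in the members, with 288 of 5787 (4.98%) and 349 of 5880 (5.94%) of all genes that much lower. Genes that much higher were 217 (3.75%) in RO-3066 and 395 (6.72%) in DMSO. Pf4 split these classes, so the direction of its companions is given as a description.

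**Figure D3:**
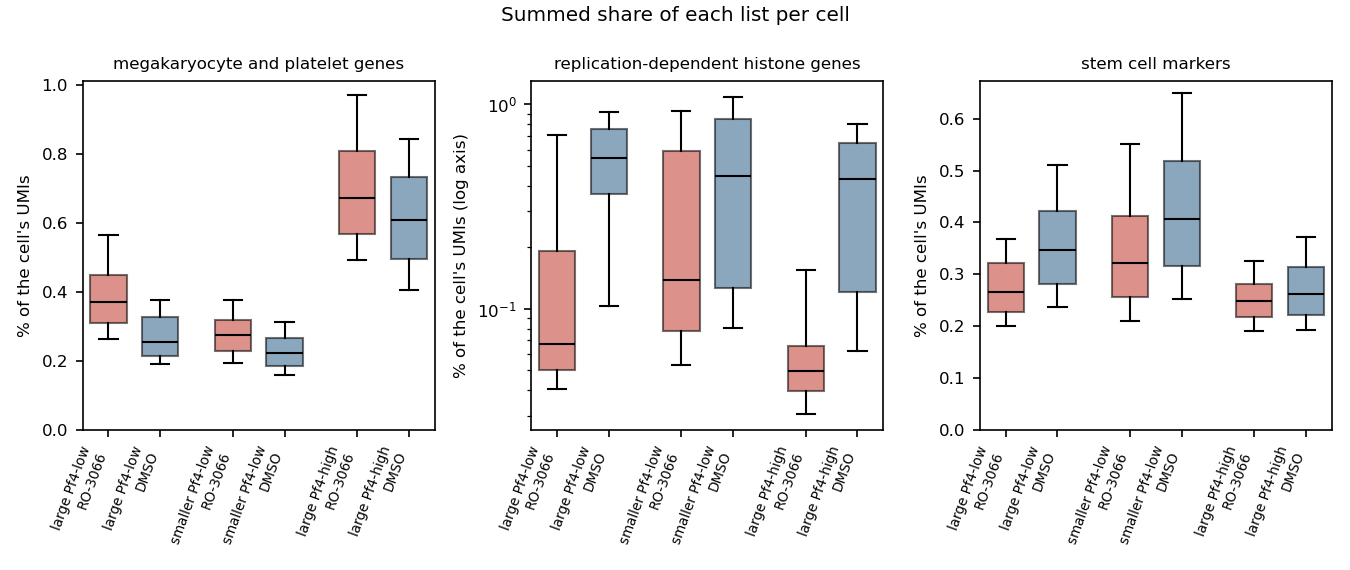
Summed share of 3 gene lists in the UMIs of a cell, for large Pf4-low, smaller Pf4-low and large Pf4-high cells, RO-3066 left of DMSO; lines are medians, boxes the middle 50% of cells and whiskers the 10th and 90th percentiles, and the histone axis is logarithmic. Median histone share is 0.067% in RO-3066 members and 0.548% in DMSO members.

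No step appeared at 50000 UMIs. In RO-3066 Pf4-low cells Itga2b stood at 55.2 CPM in cells of 10000 to 20000 UMIs, 165 CPM at 40000 to 50000, 183 CPM at 50000 to 60000 and 279 CPM at 80000 or more. Gata1 followed with 1.14, 22.3, 31.7 and 41.6 CPM in the same 4 bins. In DMSO Itga2b had 47.1, 113, 104 and 164 CPM, the last from 7 cells, and Gata1 had 4.34, 18.2, 13.8 and 16.0 CPM. The RO-3066 curves thus kept climbing past the limit, while the DMSO curve of Gata1 was highest just below it. Mecom, a transcription factor of stem cells, ran the other way in RO-3066, with 183 CPM at 10000 to 20000 UMIs and 46.9 CPM at 80000 or more; in DMSO it had 111 CPM and 74.2 CPM.

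**Figure D4:**
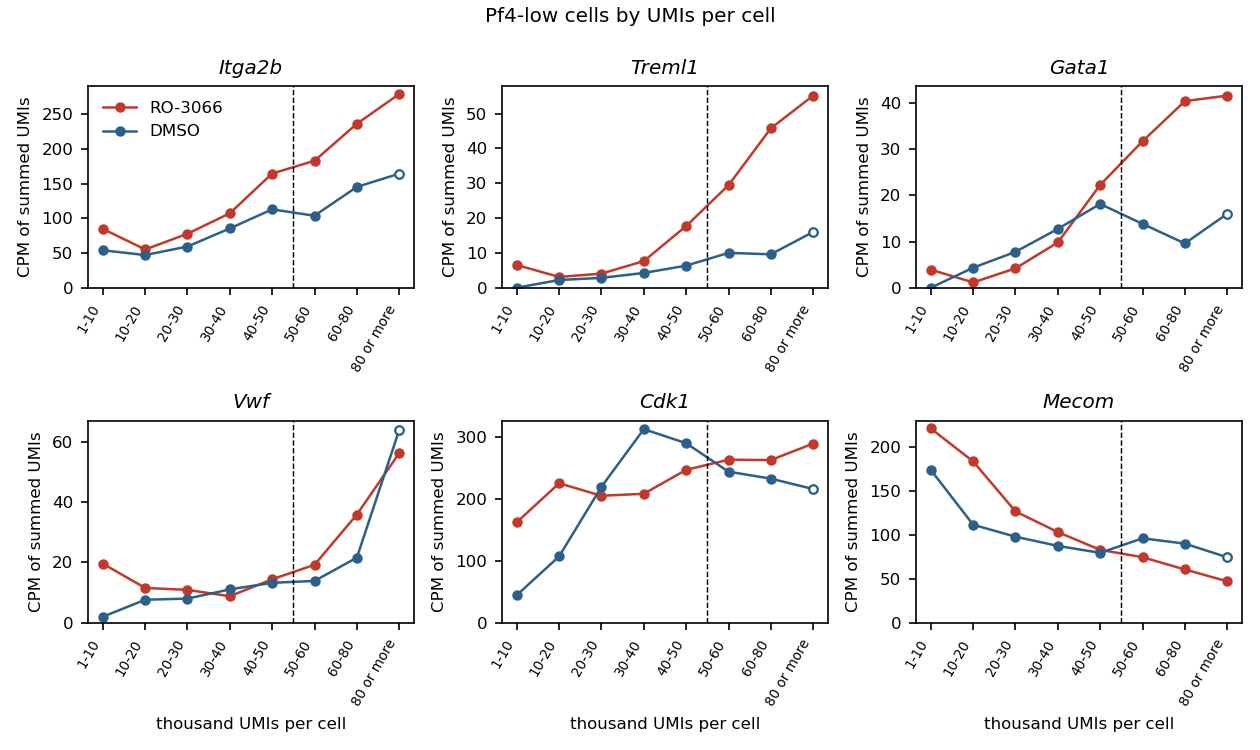
CPM of 6 genes in Pf4-low cells along bins of UMIs per cell, RO-3066 in red and DMSO in blue, with an open marker for a bin under 20 cells and a dashed line at 50000 UMIs. From 10000 UMIs on, Itga2b and Treml1 climb from bin to bin in RO-3066, to 279 and 55.1 CPM in the last bin, against 164 and 16.0 CPM in DMSO.

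Several stem cell transcripts were lower in the members, more so with RO-3066. Hlf, a transcription factor of hematopoietic stem cells, was at 46.3 CPM in RO-3066 members against 141 CPM in smaller cells, 0.328-fold (0.312 to 0.346), and at 78.4 CPM in DMSO members against 94.4 CPM in smaller cells, 0.830-fold (0.751 to 0.915). Mecom was 0.527-fold (0.503 to 0.553) in RO-3066 and 0.929-fold (0.846 to 1.02) in DMSO. Ly6a, the Sca-1 surface marker, was 0.388-fold (0.347 to 0.434) in RO-3066 and 0.575-fold (0.468 to 0.698) in DMSO. Cd34, a surface protein of progenitors, was 0.491-fold (0.464 to 0.519) and 0.602-fold (0.537 to 0.673). The list as a whole was mixed: of 26 compared genes in RO-3066, 6 were at least 1.5-fold lower and 3 higher, and of 22 in DMSO, 3 were lower and 1 higher. Slamf1, which encodes the stem cell marker CD150 and also stands in the megakaryocyte list, was 2.04-fold higher (1.84 to 2.25) in RO-3066 members and 1.87-fold higher (1.56 to 2.22) in DMSO members.

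The lowest ratios over both libraries were those of AY036118, Myl10, Sox4, Cd34, Vim, Lars2, Sept1, Spi1, Pglyrp2 and Limd2. Myl10, a myosin light chain gene, was at 46.6 CPM in RO-3066 members against 119 CPM in smaller cells and at 55.9 CPM in DMSO members against 128 CPM in smaller cells. Spi1, which encodes the myeloid and lymphoid factor PU.1, had log2 ratios of -0.51 in RO-3066 and -0.50 in DMSO.

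Genes of G2 and mitosis differed less. Of 54, 52 were compared in each library; 1 was at least 1.5-fold higher (Ckap2l, a spindle gene) and 1 lower (Ect2, a regulator of cytokinesis) in RO-3066 members, none was in DMSO members, and the median log2 ratio was 0.04 in RO-3066 and 0.22 in DMSO. Ect2 stood at 11.3 CPM in RO-3066 members against 22.5 CPM in smaller cells, and at 23.3 CPM in DMSO members against 22.6 CPM in smaller cells. For 16 genes of the switch into mitosis the median was 0.30 over 13 compared genes in RO-3066 and 0.13 over 11 in DMSO, with Plk1, a mitotic kinase, at 58.9 CPM in RO-3066 members against 44.7 CPM in smaller cells and at 102 CPM in DMSO members against 79.1 CPM in smaller cells. Scored at 10000 UMIs, 90.3% (87.5 to 92.7%) of RO-3066 members and 73.3% (62.6 to 82.2%) of DMSO members were called G2/M, against 74.1% and 53.8% of the smaller cells in the same libraries. Large Pf4-high cells were called G2/M in 94.1% in RO-3066 and 70.9% in DMSO. The median G2/M score was 0.238 in RO-3066 members and 0.249 in smaller RO-3066 cells. In DMSO the median score was 0.374 in members and 0.195 in smaller cells. S phase calls were 9.12% of RO-3066 members and 26.7% of DMSO members. Without called doublets 86.9% of RO-3066 members and 65% of DMSO members were called G2/M. Phase calls rank a cell against the others of the data set and do not measure cycling.

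The regions before the starts of the 2 cell cycle markers carry motifs long known from genes expressed in G2 and mitosis, and they are printed because Cdk1 and Ccnb1 are 2 of the 4 markers the cells were checked for. Each line holds the 250 bases before the RefSeq start on the gene's strand (mm10), chr10:69352913-69353162 on the minus strand for Cdk1 and chr13:100786487-100786736 on the minus strand for Ccnb1. Capitals mark TTTGAA or TTCAAA, the CHR motif read on either strand, and CCAAT or ATTGG. The Cdk1 region held matches to both motifs, while the Ccnb1 region held CCAAT but no CHR match.
Cdk1: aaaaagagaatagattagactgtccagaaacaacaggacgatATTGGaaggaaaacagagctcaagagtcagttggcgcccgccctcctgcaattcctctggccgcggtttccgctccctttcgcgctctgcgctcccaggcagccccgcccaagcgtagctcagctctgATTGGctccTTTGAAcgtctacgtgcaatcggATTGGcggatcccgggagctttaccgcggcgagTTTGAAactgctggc
Ccnb1: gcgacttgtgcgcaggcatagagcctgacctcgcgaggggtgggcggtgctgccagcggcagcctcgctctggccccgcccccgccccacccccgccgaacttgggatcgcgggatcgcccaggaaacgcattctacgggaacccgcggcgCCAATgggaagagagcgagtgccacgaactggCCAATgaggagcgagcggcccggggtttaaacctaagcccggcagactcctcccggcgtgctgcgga
The CHR motif was found in 19 of 47 promoters of the G2 and M list (40.4%) and in 16.3% of 27025 mouse promoters of this length. CCAAT was found in 36 of the 47 (76.6%) and in 34.5% of all promoters. Among 4425 promoters of genes compared in both libraries, 10.6% had the CHR motif and 36.6% CCAAT. Of 38 promoters of genes at least 1.5-fold higher in members of both libraries, 4 (10.5%) had CHR and 11 (28.9%) CCAAT. Of 11 promoters of genes that much lower in both, 1 had CHR and 3 had CCAAT. The motif shares of the G2 and M list thus describe that list and not the genes that differed in the members. A match is a string of letters and shows no binding.

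Replication-dependent histone genes, whose transcripts are made in S phase, were lower in the members of RO-3066 and had a median ratio near 0 in DMSO. In RO-3066, 27 of 67 listed genes were compared, 18 were at least 1.5-fold lower in members than in smaller cells, none was higher and the median log2 ratio was -0.71. In DMSO 32 were compared, none passed 1.5-fold in either direction and the median was 0.01. The linker histone gene Hist1h1b (chr13:21779883-21780625) was at 386 CPM in RO-3066 members against 631 CPM in smaller cells, and at 1625 CPM in DMSO members against 1564 CPM in smaller cells. Hist1h1e stood at 197 CPM in RO-3066 members and 366 CPM in smaller cells, and at 661 CPM in DMSO members and 686 CPM in smaller cells. Histone genes are near-identical copies whose reads counting can split, and whether the kit caught their transcripts without poly(A) tails is not given. The DMSO median was -0.17 when smaller cells had at least 20000 UMIs.

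Between the treatments, 213 of 5857 genes (3.64%) were at least 1.5-fold higher in RO-3066 members than in DMSO members and 213 (3.64%) lower, while the median over all genes was -0.11. Scaled to a median near 0, 313 were higher and 118 lower. In smaller cells 148 of 5744 (2.58%) were higher and 105 (1.83%) lower. Where members of at least 1 library reached 50 CPM, the highest ratios were those of Apoe, Slc6a13, Cotl1, Lst1, Cdkn1a, Pdzk1ip1, Gp9, Hacd4, Smim5 and Alox5, and the lowest those of Hist1h2bc, Hist1h1b, Hist1h1e, Hist1h1c, Hist1h1d, Bnip3, Hist2h2ac, Hist1h2bm, Hist1h3c and Hist1h2ae. Apoe, the gene of a lipid carrier, was at 121 CPM in RO-3066 members and 20.7 CPM in DMSO members, 5.83-fold (4.83 to 7.11), and 4.25-fold (4.1 to 4.4) in smaller cells. At the assumed rate, 53.5% of the DMSO members and 7.64% of the RO-3066 members were called doublets. The part of doublets in these ratios was not tested.

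Histone genes were 1.5-fold lower with RO-3066 in 30 of 31 compared members of their list among large Pf4-low cells (median log2 -1.37), and in 19 of 32 among smaller cells (median -0.64). Hist1h1b was 0.238-fold (0.231 to 0.244) in large Pf4-low cells and 0.404-fold (0.399 to 0.408) in smaller ones. A smaller gap stood in G2 and M genes, where 8 of 52 were at least 1.5-fold lower in RO-3066 members, none was higher, and the median was -0.36 in large Pf4-low and -0.16 in smaller cells. Plk1 was 0.577-fold (0.525 to 0.635) in RO-3066 members and 0.566-fold (0.543 to 0.590) in smaller RO-3066 cells, relative to DMSO. All 20 cytokinesis and chromosome passenger genes compared had a lower RO-3066 over DMSO ratio in large Pf4-low than in smaller cells, as had 3513 of all 5857 genes.

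Megakaryocyte and platelet genes were mostly higher with RO-3066. Of 29 compared between the libraries among large Pf4-low cells, 28 were higher in RO-3066, 15 at least 1.5-fold and none that much lower, with a median log2 ratio of 0.62. Some of them, such as Treml1 at 10.6 CPM in DMSO members, reached the 20 CPM minimum only with RO-3066 and so had to be higher there; the count is a description. In smaller cells 19 genes, a different set, were compared, with a median of 0.33. Treml1 was 4.06-fold higher (3.12 to 5.39) in RO-3066 members and 2.70-fold higher (2.36 to 3.08) in smaller RO-3066 cells. Gata1 was 3.04-fold higher (2.38 to 3.95) in RO-3066 members, on 67 DMSO UMIs, and 1.18-fold (1.07 to 1.30) in smaller cells. Itga2b was 1.81-fold (1.68 to 1.96) and Gp9 2.44-fold (2.07 to 2.90) higher in RO-3066 members. Of the members, 138 in RO-3066 and 11 in DMSO had 75000 UMIs or more. Among members under 75000, the log2 ratios of Itga2b and Gp9 were 0.73 and 1.22, in place of 0.85 and 1.26. There Vwf and Cavin2 had 0.56 and 0.52, below 1.5-fold, Treml1 and Gata1 had 1.71 and 1.38, and the list's median was 0.55. The part of UMI count in these ratios was not tested. Without called doublets the log2 ratios of Vwf and Cavin2 were 0.23 and 0.26, in place of 0.62 and 0.83, below 1.5-fold, and the list's median was 0.47; those of Treml1 and Gata1 were 1.65 and 1.42, in place of 1.93 and 1.53. Of 22 erythroid genes 7 were compared in large Pf4-low cells, 3 were at least 1.5-fold higher with RO-3066 and 1 lower, and the median was 0.48. Hbb-bt, a beta globin gene, was at 417 CPM in RO-3066 members and 230 CPM in DMSO members, 1.81-fold (1.71 to 1.92), and Hemgn, a nuclear protein gene of blood cells, was 1.68-fold (1.5 to 1.89). Pf4 itself was at 1201 CPM in RO-3066 members and 1072 CPM in DMSO members.

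Hlf and Mecom were lower in RO-3066 members than in DMSO members but higher in smaller RO-3066 than in smaller DMSO cells. Hlf was 0.591-fold (0.531 to 0.659) in members and 1.49-fold (1.45 to 1.54) in smaller cells, relative to DMSO. Mecom was 0.673-fold (0.610 to 0.744) in members and 1.19-fold (1.15 to 1.22) in smaller cells. Ly6a was lower in both, 0.541-fold (0.435 to 0.679) in members and 0.801-fold (0.757 to 0.847) in smaller cells. Ly6a lay under the 20 CPM minimum in RO-3066 members, with 14.6 CPM at 50000 to 60000 UMIs and 7.55 CPM at 80000 or more. These genes do not stand for the list. Its median was 0.07 in large Pf4-low and 0.24 in smaller cells, and 8 of its 24 genes compared in large Pf4-low cells were at least 1.5-fold higher and 2 lower. A gene that reached the 20 CPM minimum through a single library had to be higher there, so this count is a description. Sult1a1 had a log2 ratio of 3.01 in members.

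Targets of p53, the factor activated by DNA damage, had smaller ratios between the libraries in members than in smaller cells. Cdkn1a, which encodes the CDK inhibitor p21, was at 52.7 CPM in RO-3066 members and 19.5 CPM in DMSO members, and at 54.4 CPM in smaller RO-3066 and 18.0 CPM in smaller DMSO cells. Among 29 targets, 8 were compared in large Pf4-low cells with a median log2 ratio of 0.28, 2 of them at least 1.5-fold higher. In smaller cells 13 genes, a different set, were compared, with a median of 0.94 and 7 of them higher. These 2 medians are therefore not over the same genes. All 8 genes compared in large Pf4-low cells had a lower ratio there than in smaller cells, the direction of 3513 of all 5857 genes. Of 16 compared genes of G1 to S cyclins and kinases, 9 had a ratio above 0 and 7 below, with a median of 0.05. E2f1, a transcription factor of S phase entry, was 1.84-fold higher (1.57 to 2.16), and the cyclin E genes were at least 1.5-fold lower, Ccne1 at 7.64 CPM in RO-3066 and 23.8 CPM in DMSO members and Ccne2 at 26.2 CPM in RO-3066 and 66.5 CPM in DMSO members.

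Glycolysis genes were lower with RO-3066, 8 of 16 compared in large Pf4-low cells by at least 1.5-fold and none higher, with a median log2 ratio of -0.58 there and -0.81 in smaller cells. Ldha, lactate dehydrogenase, had 1052 CPM in RO-3066 members and 1369 CPM in DMSO members, against 719 and 1262 CPM in smaller cells of the same libraries. Slc16a3, a lactate exporter, had 15.9 CPM in RO-3066 members and 43.2 CPM in DMSO members. Of 11 compared hypoxia-linked genes outside glycolysis, 9 were at least 1.5-fold lower and 1, Ndrg1, was higher (1.57-fold, 1.31 to 1.91), with Bnip3, a mitophagy receptor, at 24.3 CPM in RO-3066 members and 76.5 CPM in DMSO members. All 27 compared genes of ribosome biogenesis had a ratio below 0 (median -0.25), and 73 of 77 cytosolic ribosomal protein genes a ratio above 0 (median 0.20), 1 in each group past 1.5-fold; among all 5857 genes 3756 had a ratio below 0 and 2101 above. Neutrophil and monocyte genes took 0.049% of UMIs in RO-3066 members and 0.033% in DMSO members, with 4 and 10 of their 24 markers at 0, and of 5 compared 3 were at least 1.5-fold higher (median 0.91); their part in the other differences was not tested.

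**Figure D5:**
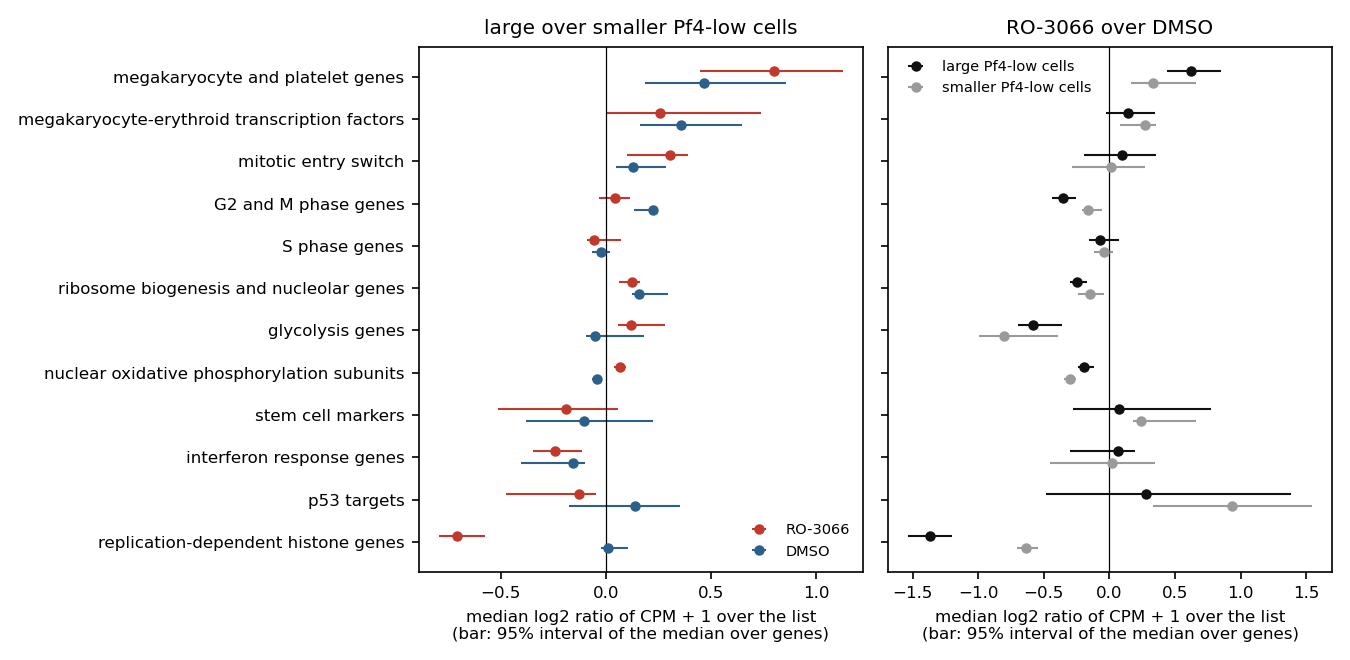
Median log2 ratio of CPM + 1 over 12 gene lists, on the left for large over smaller Pf4-low cells in RO-3066 and DMSO, on the right for RO-3066 over DMSO in large and smaller Pf4-low cells; bars are exact 95% intervals of a median over genes, which are not independent replicates. Histone genes lie at -0.71 in RO-3066 and 0.01 in DMSO on the left, and at -1.37 in large and -0.64 in smaller cells on the right.

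The members were not uniform. Histone genes took 0.040% of UMIs at the 10th percentile of RO-3066 members, 0.067% at the median and 0.711% at the 90th percentile, so most RO-3066 members held few histone transcripts and a minority held many. The DMSO values were 0.103%, 0.548% and 0.922%. Across the 537 RO-3066 members, the shares of histone and of G2 and M genes had a Spearman rho of 0.62, against -0.15 across the 86 DMSO members. The share of megakaryocyte genes had a rho of 0.69 with the Pf4 share in RO-3066 members and 0.58 in DMSO members, and of 0.33 and 0.15 with UMIs per cell. These coefficients describe cells of 1 library each, which share its depth, and carry no test.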

How the data were processed

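For each of the 2 libraries the authors deposited raw UMI counts by gene and barcode. Cell Ranger appears as 5.0.1, with mm10, in the submitters' processing notes and as 7.1.0 in the file headers. The sources used here do not say which of them applies, nor name the annotation or the treatment of intron reads. Of 32285 gene identifiers, 32235 were found in GENCODE vM21 (mm10), the source of coordinates; promoters are from RefSeq (GRCm38.p6). The members and gene lists were chosen with earlier results of these data known.

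Barcodes with at least 500 genes and at most 10% mitochondrial UMIs were kept, 3807 of RO-3066 and 6137 of DMSO. Counts were summed per class and library, scaled to CPM, and compared as log2 of CPM + 1 among genes with at least 20 CPM in either side; a gene counted as higher or lower from 1.5-fold. With 1 library per treatment no test was run. Fold intervals are exact conditional Poisson intervals and shares have Clopper-Pearson intervals at 95% confidence; all cover counting error only. Cells were thinned to 10000 UMIs for genes per cell, shares of cells with a UMI and phases (scanpy 1.11.5), leaving out 120 RO-3066 and 72 DMSO smaller cells; no cell type that should lack these genes was at hand to measure free RNA. Each cell's doublet score was the fraction of simulated doublets among its 50 nearest neighbours, called at 0.8% per 1000 barcodes and kept unless stated. The calculation was tested on simulated data.

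Genes named are the 4 markers, Pf4, a fixed set of genes of the cell cycle, of p53, of platelets and of stem cells, the 10 highest and the 10 lowest ratios of each comparison among genes with at least 50 CPM (in both libraries for size) without unnamed models, mitochondrial and ribosomal protein genes, and the 3 largest ratios of each list. Some genes that this rule takes are not reported here. Python 3.11.15, numpy 2.4.6, scipy 1.17.1, pandas 2.3.3 and scikit-learn 1.9.0 were used.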

Additional observations from a re-analysis of the deposited data

Results flagged for a closer look

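Several ratios of large to smaller Pf4-low cells had opposite signs in the 2 libraries. Given here are 1 list whose intervals over genes left out 0 in both libraries and 2 named genes with log2 ratios of at least 0.3 in each direction; in each of the 3 the difference between the libraries was not tested. The median log2 ratio of nuclear oxidative phosphorylation subunits was 0.07 (0.0659) in RO-3066 and -0.04 (-0.0433) in DMSO, over 77 genes each. Cotl1, which encodes an actin-binding protein, had a log2 ratio of 0.43 in RO-3066, with 68.9 CPM in members and 51.1 CPM in smaller cells, and of -0.50 in DMSO, with 24.8 CPM in members and 35.3 CPM in smaller cells. The histone gene Hist1h3c had -0.57 in RO-3066, with 50.3 CPM in members and 75.4 CPM in smaller cells, and 0.40 in DMSO, with 141 CPM in members and 107 CPM in smaller cells. Called doublets made up 7.64% of RO-3066 and 53.5% of DMSO members, and their part in these differences was not tested.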

How the results depend on the processing

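Members as a share of kept cells were 24.8% in RO-3066 and 4.04% in DMSO from 40000 UMIs, 8.33% and 0.619% from 60000, 7.38% and 0.782% below 0.1% Pf4, 18.3% and 2.12% below 0.5%, and 0.685% in DMSO without called doublets. Counts of genes higher and lower in RO-3066 members than in smaller cells were 53 and 58 below 0.1% Pf4, 254 and 253 at a minimum of 5 CPM, 406 and 398 without one, and 63 and 32 at 50 CPM; the lower count was 138 below 0.5% Pf4 and 58 against smaller cells of at least 20000 UMIs. In DMSO they were 48 and 18 from 40000 UMIs, 186 and 54 from 60000, 120 and 67 below 0.5% Pf4, 200 and 72 without called doublets, 317 and 135 thinned, 190 and 109 at 5 CPM, 358 and 339 without a minimum, and 27 and 11 at 50 CPM; the lower count was 52 with every cell at the same weight and 13 against smaller cells of at least 20000 UMIs. Between the libraries they were 382 and 475 thinned, 550 and 401 at 5 CPM, 1175 and 597 without a minimum, 88 and 101 at 50 CPM, and 118 lower with median-ratio scaling. The histone median in RO-3066 was -0.42 from 40000 UMIs, -0.98 from 60000, -0.44 below 0.1% Pf4, -0.87 below 0.5%, -0.57 without a minimum, -0.51 against smaller cells of at least 20000 UMIs and -0.53 for members under 75000. In DMSO it was -0.21 from 40000 UMIs, -0.10 below 0.5% Pf4, -0.0456 with median-ratio scaling and -0.17 against smaller cells of at least 20000 UMIs. Between the libraries it was -0.93 from 40000 UMIs, -1.70 from 60000, -1.19 below 0.1% Pf4 and -1.09 without a minimum. The G2 and M median in DMSO was 0.30 from 40000 UMIs, 0.33 below 0.1% Pf4, 0.26 without called doublets, 0.37 with equal weights, 0.32 thinned, 0.0390 against smaller cells of at least 20000 UMIs and 0.27 for members under 75000; between the libraries it was -0.45 without called doublets and -0.25 with median-ratio scaling. The megakaryocyte median in DMSO was 0.19 at 50 CPM and the glycolysis median -0.11 with median-ratio scaling, which also turned the heat shock median between the libraries to 0.0219, in place of -0.08. G2/M calls of RO-3066 members were 86.9% without called doublets, and 21 RO-3066 members were called at 0.4% per 1000 barcodes. Other medians near 0 changed sign as well. The G2 and M median in RO-3066 reached -0.0132 with equal weights, the stem cell median between the libraries -0.00723 without called doublets, and the glycolysis median in DMSO 0.0105 below 0.5% Pf4. The causes were not tested. A mitochondrial limit of 5% and a pseudocount of 5 CPM moved none of the counts and medians named here beyond 1.5-fold or their intervals. Leaving out the 10 members with the most UMIs of each library was checked only for the gene counts between the libraries, which stayed within 1.5-fold. DMSO members rest on 86 cells, 40 without called doublets. No paired analysis was possible because there is 1 library per treatment, and for the same reason no replicate could be left out.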
